A study of Mus musculus with 9 samples.

Results

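The genes described here act in homologous recombination, the Fanconi anaemia pathway and the checkpoint that accompanies them, in activated mouse CD8+ T cells treated with antibodies to CD27, to PD-1 and PD-L1, or to all of these. A list of 34 genes was taken, and each gene was read from the probe set that names it with the highest mean over the 9 arrays. Of the 34 genes, 32 had such a probe set, among 30745 genes tested in all. Rbbp8 and Xrcc2 were not named by a probe set used here. The probe set of Rad54b also names Fsbp, and that of Atrip also names Trex1, so that values of these genes belong to the probe set.

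Homologous recombination repairs a broken chromosome by copying the intact sister chromatid, so it works mainly while DNA is being replicated and afterwards. The break is sensed and its ends are cut back to single strands, BRCA proteins then act on those strands so that they can invade the intact copy, and the Fanconi proteins turn crosslinked forks into breaks that this machinery can mend. Kinases of the checkpoint stop the cell cycle when forks stall, and dividing lymphocytes depend on them because clonal expansion involves fast replication.

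Transcripts were measured on 1 whole-transcript array per mouse, with 3 mice in each of 3 groups. Every mouse was a naive congenic recipient of Thy1.1+ CD8+ T cells of pmel1 mice, whose transgenic receptor sees the melanocyte protein gp100, and every mouse received 100 µg of hgp100 peptide into a vein with 400 µg of antibody. The anti-CD27 group received 200 µg of the agonist antibody AT124 and 200 µg of isotype control. The anti-PD-1/L1 group received 100 µg of RMP1-14, which blocks PD-1, 100 µg of 10F.9G2, which blocks PD-L1, and 200 µg of isotype control. The combination group received AT124, RMP1-14 and 10F.9G2 at those doses. On day 4 splenic CD8+ cells were enriched for each mouse and Thy1.1+ CD8+ cells were sorted to over 99% purity. No group with peptide and isotype alone is among the samples, so each comparison is between treatments, and all cells come from 1 kind of transgenic T cell.

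All 8 measured markers of CD8 T cells were above the mean of the background control probe sets in each group, and neither of the CD4 T cell markers was. Of markers of other cell types, 2 of 6 for B cells were above it in each group, 2 to 3 of 6 for granulocytes, 1 to 3 of 8 for myeloid cells, 1 to 2 of 3 for erythroid cells and 0 to 1 of 3 for NK cells. The summed linear level of the CD8 list lay between 3690 and 5280 on the anti-PD-1/L1 arrays, between 9870 and 10200 on the anti-CD27 arrays and between 8700 and 9520 on the combination arrays. The anti-PD-1/L1 arrays stood apart in their controls: the background control mean was 4.06 ± 0.08 (log2, SD, n = 3) there, 3.27 ± 0.06 on the anti-CD27 arrays and 3.25 ± 0.04 on the combination arrays, and the positive control mean was 5.75 ± 0.19, 6.70 ± 0.02 and 6.81 ± 0.04. The combination and anti-CD27 arrays were closer to each other in these controls, although every combination array had a higher positive control mean than every anti-CD27 array, and their comparison is given first.

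Many of the repair genes lay close to the background controls. At or below the background control mean lay 20 of the 32 genes in anti-PD-1/L1, 3 in the anti-CD27 group (Rad51ap1, Rad54b and Fancb) and 2 with the combination (Rad51ap1 and Fancb). Topbp1 in the combination was the 1 gene above the 95th percentile of the background controls, which lay at 6.83 there. The same deposited value occurred on 3 or more arrays for 12 genes, up to 7 arrays for Fancc and Atrip, so that an SD of 0 for these does not show a precise measurement. Replicates 1 and 3 of anti-CD27 also shared 1 deposited value for Brca1, Blm, Brip1 and Clspn, among other genes. The plot of group means sets each gene against the background controls.

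**Figure D1:**
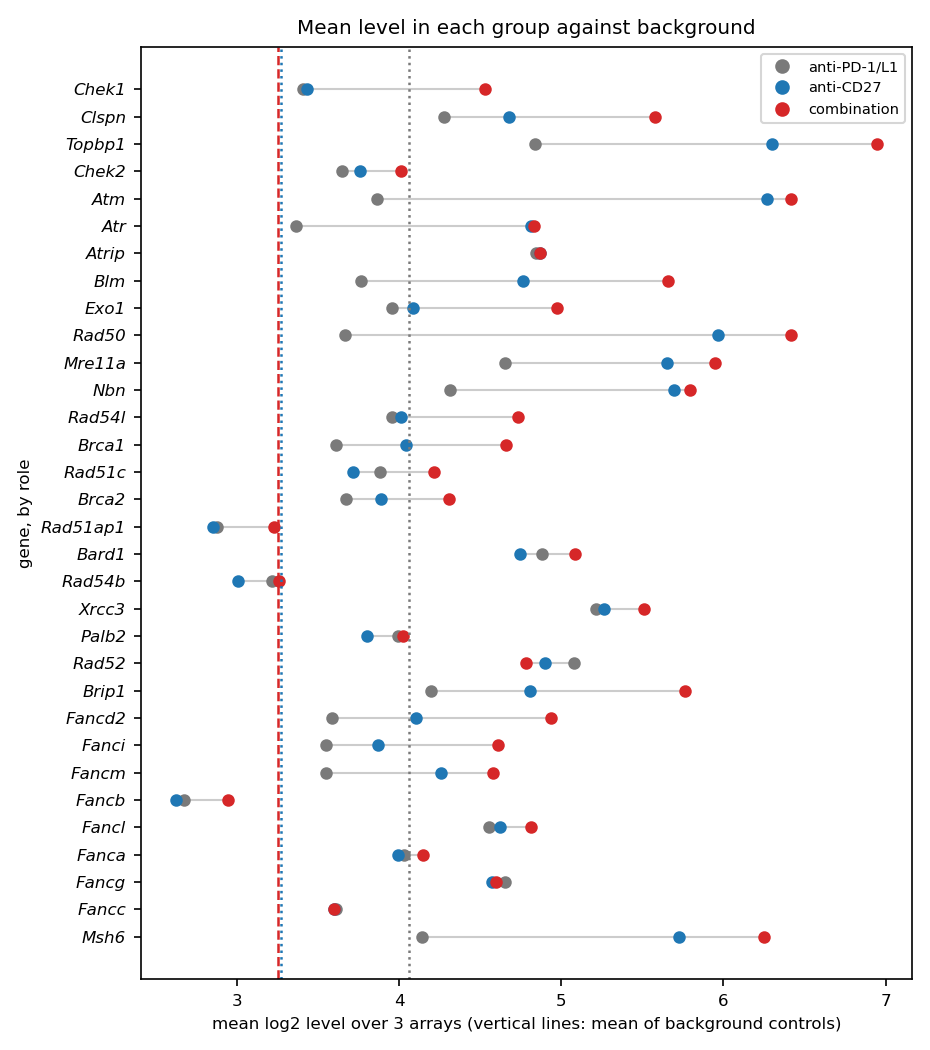
Mean log2 level over 3 arrays (horizontal axis) of each of the 32 repair genes (vertical axis, grouped by role) for anti-PD-1/L1 (grey), anti-CD27 (blue) and the combination (red). Vertical lines mark the mean of the background control probe sets in each group. The grey line lies at 4.06, to the right of 20 of the grey points.

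Transcripts of part of this gene set were higher when the blocking antibodies were given together with the CD27 agonist than with the agonist alone. Between the combination and anti-CD27, 9 of the 32 genes rose (28.1%) and none fell, by limma's moderated test with p-values adjusted over all genes at 0.05. Over all genes tested 1.26% rose and 0.520% fell. The 9 genes were Chek1, Brip1, Clspn, Blm, Exo1, Topbp1, Brca1, Rad51c and Rad50. The median log2 difference of the 32 genes was 0.33, against a median of all genes that rounds to 0.00, and 29 of the 32 differences were above 0. For 25 of the 32 genes every combination array lay above every anti-CD27 array, against 12.1% of all genes. The shares over all genes include many genes of low signal, where calls are harder to reach. Without the 50% of genes with the lowest mean, 10 repair genes rose, and 561 of the genes that were left did. The list was chosen with earlier results of these data known. With the positive control mean of each array as a covariate 12 of the 32 genes rose, and 393 of all genes did, against 387 without it. The slope of this covariate is fitted within groups, where the SD of the positive control mean was 0.19 in anti-PD-1/L1. That SD was 0.02 in anti-CD27 and 0.04 in the combination. The fit thus rests mostly on arrays outside this comparison and cannot show what part the controls had in it. In RNA from pooled cells, a larger share of cells that carry a transcript and more of it per cell cannot be told apart.

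**Figure D2:**
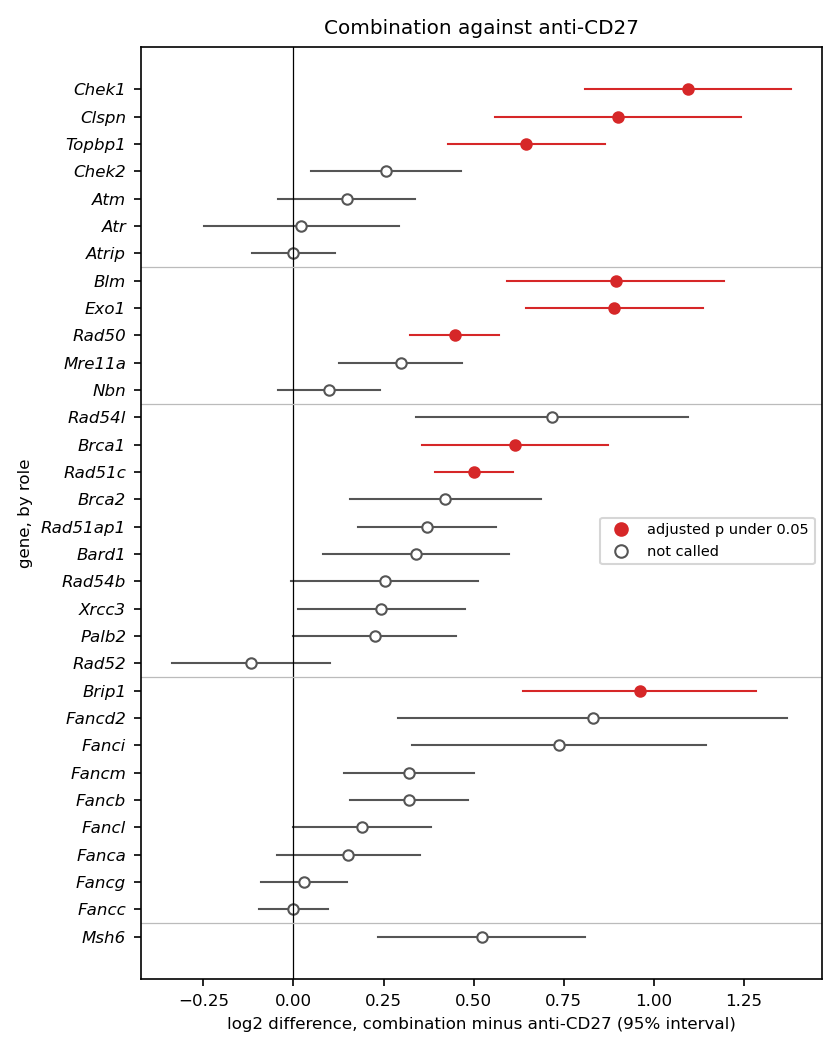
Log2 difference between the combination and anti-CD27 (horizontal axis, with its 95% interval as a line) for each of the 32 repair genes (vertical axis, grouped by role). Filled red points are the 9 genes at an adjusted p under 0.05, from Rad50 at 0.45 to Chek1 at 1.09, and open points are not called.

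Of the 7 genes of the damage kinases and their checkpoint, 3 rose between these groups. Chek1 encodes the kinase CHK1, which restrains origin firing and mitotic entry when forks stall. Its log2 level was 4.54, 4.54 and 4.51 on the combination arrays, 3.57, 3.13 and 3.59 on the anti-CD27 arrays and 3.37, 3.28 and 3.57 on the anti-PD-1/L1 arrays. The combination arrays lay above all others, and the remaining 6 arrays overlapped. The difference between the combination and anti-CD27 was 1.09 ± 0.13 (log2, SE), a 2.14-fold difference (adjusted p = 0.00537).

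Clspn encodes claspin, the adaptor through which ATR activates CHK1. Clspn was at 5.44, 5.37 and 5.92 in the combination, 4.77, 4.50 and 4.77 in anti-CD27 and 4.20, 4.20 and 4.44 in anti-PD-1/L1. These 3 groups did not overlap, and the step from anti-CD27 to the combination was 0.90 ± 0.15 (adjusted p = 0.0224). Leaving out a single anti-CD27 array, whichever it was, or replicate 1 of the combination ended the call, with an adjusted p of up to 0.104. TOPBP1 is the protein that activates ATR at stalled forks. Topbp1 was at 6.85, 6.84 and 7.15 in the combination, 6.32, 6.23 and 6.35 in anti-CD27 and 4.73, 4.83 and 4.95 in anti-PD-1/L1. The combination was higher than anti-CD27 by 0.65 ± 0.10 (adjusted p = 0.0136), a call that ended when replicate 1 or 2 of anti-CD27 was removed (adjusted p up to 0.0758).

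The kinases at the top of the same pathway were not called. Atm, which encodes the kinase that responds to double-strand breaks, differed by 0.15 (95% interval -0.04 to 0.34) and Atr, the kinase of stalled forks, by 0.02 (-0.25 to 0.29). For Atr the interval leaves out a change as large as that of Chek1. The probe set of Atrip, the partner of ATR, had the same value of 4.87 on all 6 of these arrays. Chek2, which encodes the kinase downstream of ATM, had a difference of 0.26 (0.05 to 0.47, adjusted p = 0.333).

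Of the 5 genes that sense and resect broken ends, 3 rose. Exo1 encodes an exonuclease that extends resection. It was at 4.92, 4.79 and 5.23 in the combination, 4.15, 4.02 and 4.09 in anti-CD27 and 3.89, 3.94 and 4.05 in anti-PD-1/L1. Exo1 was higher in the combination than in anti-CD27 by 0.89 ± 0.11, 1.85-fold (adjusted p = 0.00645), and all 3 combination arrays exceeded the other 6. Blm encodes the helicase mutated in Bloom syndrome, which unwinds ends for resection and dissolves recombination intermediates. Blm was at 5.53, 5.49 and 5.96 in the combination, 4.87, 4.56 and 4.87 in anti-CD27 and 3.78, 3.73 and 3.80 in anti-PD-1/L1, so that the 3 groups were ordered without overlap. The difference from anti-CD27 was 0.89 ± 0.13 (adjusted p = 0.0135), which was no longer called when replicate 1 or 2 of anti-CD27 was removed (adjusted p up to 0.0594).

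Rad50, Mre11a and Nbn encode the 3 subunits of the complex that binds broken ends first. Rad50 was at 6.49, 6.37 and 6.38 in the combination and 5.96, 5.93 and 6.01 in anti-CD27, a difference of 0.45 ± 0.05 (adjusted p = 0.00633). Mre11a differed by 0.30 ± 0.07 (adjusted p = 0.113), with no overlap between the groups, and Nbn by 0.10 (95% interval -0.04 to 0.24). Whether the differences of the subunits differ from each other was not tested.

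Among the 10 genes of the BRCA proteins and strand exchange, 2 rose. Brca1, whose product promotes resection, was at 4.62, 4.45 and 4.91 in the combination, 4.10, 3.94 and 4.10 in anti-CD27 and 3.67, 3.50 and 3.67 in anti-PD-1/L1. The groups did not overlap. Brca1 rose by 0.62 ± 0.11 (adjusted p = 0.0354), but the call was lost in 9 of 18 alternative analyses, with an adjusted p of up to 0.162. Leaving out any 1 array of anti-CD27, replicate 1 or 3 of the combination, or replicate 2 of anti-PD-1/L1 lost it.

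Rad51c encodes a protein of strand exchange that is mutated in some hereditary breast and ovarian cancer. Rad51c was at 4.23, 4.20 and 4.23 in the combination and 3.66, 3.71 and 3.77 in anti-CD27, and all 3 anti-PD-1/L1 arrays had the value 3.88. Rad51c rose by 0.50 ± 0.05 (adjusted p = 0.00213), the lowest adjusted p of the 32 genes in this comparison. The equal anti-PD-1/L1 values enter the spread behind this p with an SD of 0, so its rank does not show a more precise measurement. The calls of Rad51c, Rad50, Exo1 and Chek1 held in all 18 alternative analyses.

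The other 8 genes of this role were not called. Rad54l, which encodes a motor that aids strand exchange, was at 4.70, 4.41 and 5.08 in the combination and 4.13, 3.78 and 4.13 in anti-CD27, a difference of 0.72 ± 0.17 (adjusted p = 0.0835). Brca2, a hereditary breast cancer gene whose product acts after resection, had a difference of 0.42 ± 0.12 (adjusted p = 0.156) and Bard1, the partner of BRCA1, 0.34 ± 0.11 (adjusted p = 0.282). Palb2, which links BRCA1 to BRCA2, differed by 0.23, Xrcc3, which acts with Rad51c, by 0.24, and the probe set of Rad54b, a relative of Rad54l, by 0.25. Rad51ap1, whose product aids strand exchange, had a difference of 0.37 (adjusted p = 0.0772), with both group means at or below background. Rad52, which encodes a strand annealing protein, had a difference of -0.12 (95% interval -0.34 to 0.10).

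Among the 9 Fanconi genes, Brip1 was the 1 called. Brip1 encodes the BRCA1-interacting helicase FANCJ. It was at 5.64, 5.69 and 5.96 in the combination, 4.95, 4.51 and 4.95 in anti-CD27 and 4.10, 4.11 and 4.37 in anti-PD-1/L1, with no overlap between the 3 groups. Brip1 rose by 0.96 ± 0.14, 1.95-fold (adjusted p = 0.0135), and was no longer called when replicate 2 or 3 of the combination was removed (adjusted p up to 0.0566).

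Fancd2 and Fanci encode the paired proteins that are ubiquitinated when the pathway is switched on. Fancd2 was at 4.58, 4.67 and 5.56 in the combination and 4.24, 3.84 and 4.24 in anti-CD27. The difference of 0.83 ± 0.24 had an adjusted p of 0.173, and replicate 3 of the combination lay well above the other 2. Fanci had a difference of 0.74 ± 0.18 (adjusted p = 0.101) and Fancm, the translocase that recognises the lesion, 0.32 ± 0.08 (adjusted p = 0.106). Of the core complex, which carries out the ubiquitination, Fancl had a difference of 0.19 (95% interval -0.00 to 0.38) and Fanca of 0.15 (-0.05 to 0.35). Fancg differed by 0.03 (-0.09 to 0.15) and Fancc by -0.00 (-0.10 to 0.10). Fancc had the same value of 3.60 on every array of both groups, and Fancg had 4.58 on most of them. Their intervals therefore do not show a precise measurement. Fancb, a further core subunit, had a difference of 0.32 with both means below background. Msh6, a mismatch recognition subunit that is also in the list, was at 6.26, 6.27 and 6.21 in the combination and 5.72, 5.67 and 5.78 in anti-CD27, a difference of 0.52 ± 0.13 (adjusted p = 0.0968).

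**Figure D3:**
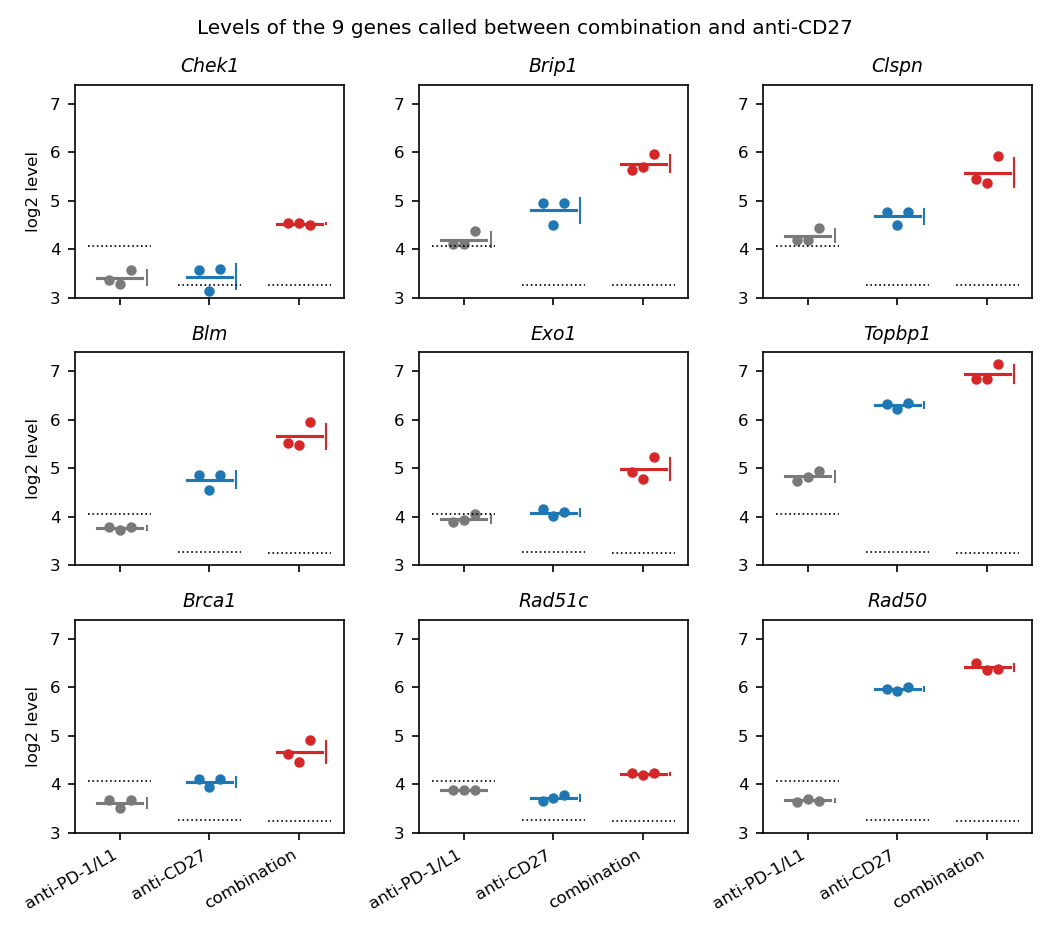
Log2 level (vertical axis) of the 9 called genes on each array of the 3 groups (horizontal axis). Points are single mice, horizontal bars group means, vertical bars 1 SD on each side, and dotted lines the background control mean of the group. For all 9 genes every combination point lies above every anti-CD27 point.

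Levels were not even within the groups. Replicate 3 of the combination had the highest value of its group for 22 of the 32 genes and the highest of all 9 arrays for 19. Replicate 2 of anti-CD27 had the lowest value of its group for 26. After subtraction of each gene's mean over the 9 arrays, the median of the 32 genes was 0.38, 0.30 and 0.55 on the combination arrays, -0.01, -0.16 and -0.01 on the anti-CD27 arrays and -0.35, -0.40 and -0.29 on the anti-PD-1/L1 arrays. On the same scale, 25 genes of G2/M and mitosis had medians of 0.41, 0.39 and 1.5 on the combination arrays and 0.16, -0.33 and 0.14 on the anti-CD27 arrays. The array with the highest and the array with the lowest repair gene median of these 6 were thus also those of the highest and lowest mitotic median. The part of these mitotic genes in the repair gene differences was not tested. Without replicate 3 of the combination 7 of the repair genes rose, and without replicate 2 of anti-CD27 5 did, as without its replicate 1. Calls over all genes fell as well. With every array 387 genes rose, and without replicate 3 of the combination 222 did. Without replicate 2 of anti-CD27 142 rose, and without its replicate 1 136 did.

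**Figure D4:**
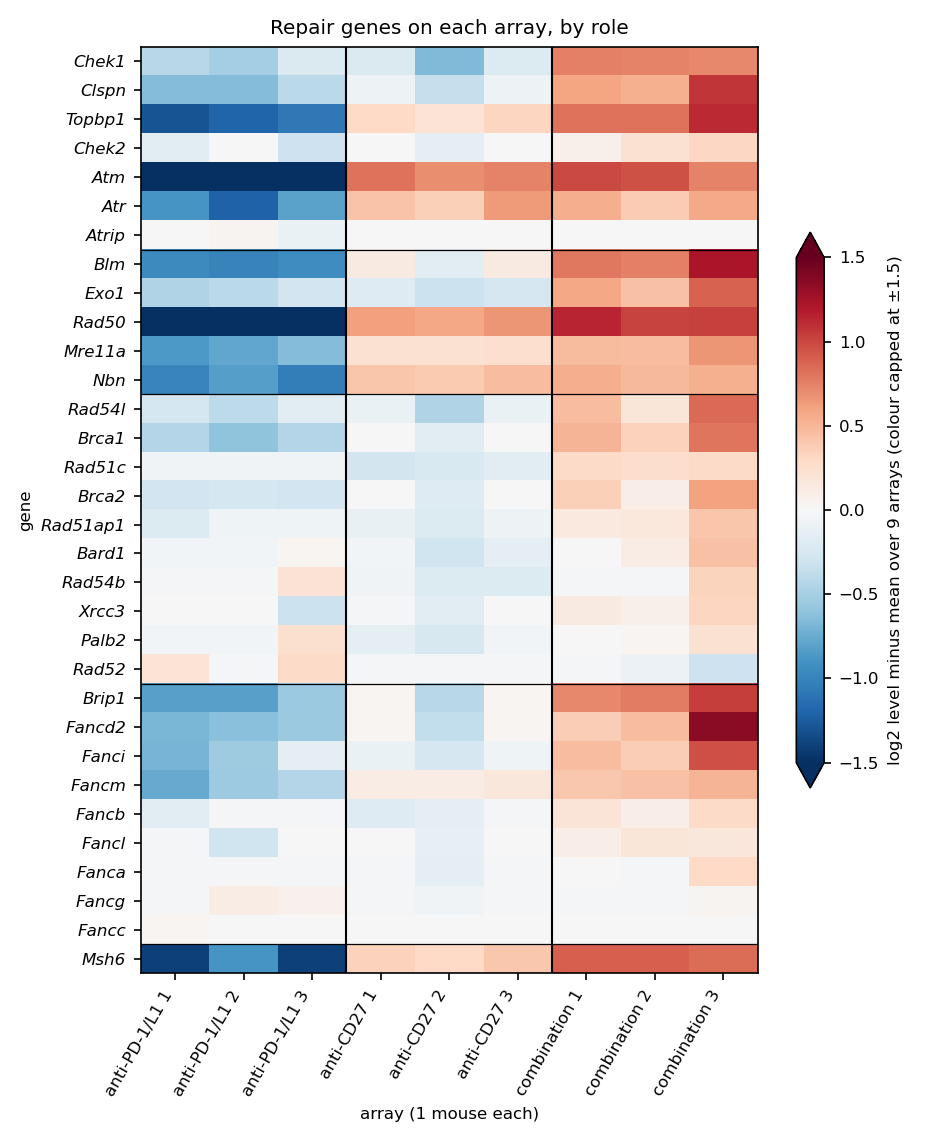
Log2 level of each of the 32 repair genes (rows, grouped by role) on each of the 9 arrays (columns) after subtraction of the gene's mean over the 9 arrays. Colour runs from blue (lower) to red (higher) and is capped at 1.5 on each side. The combination columns are the reddest for most rows, while Rad50, Atm, Nbn, Atr and Msh6 differ mostly between the anti-PD-1/L1 columns and the others.

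Short windows of promoters are shown for the genes of the list that carry a binding site sequence of E2F, the factors that drive genes of S phase, and for Brip1, as the called gene with the most CCAAT boxes. Promoters of RefSeq on GRCm38.p6 were read from 250 bases before the transcription start to 50 after it, and 27 of the 32 genes had an entry. The letters TTTCCCGC or TTTGGCGC, searched on both strands, occurred in 6 of the 27 genes (22.2%), against 2.29% of 18203 tested genes with a promoter and 10 of 26 genes of DNA replication (38.5%). Of all 32851 promoters of this length 1.56% held them. In the windows, written 5′ to 3′ on the gene's strand, capitals mark the match, which appears as GCGGGAAA where it lies on the other strand.
Rad51c: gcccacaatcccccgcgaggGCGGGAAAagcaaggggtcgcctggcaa
Brca2: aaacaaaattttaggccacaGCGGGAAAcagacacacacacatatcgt
Bard1: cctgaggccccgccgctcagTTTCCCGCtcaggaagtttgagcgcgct
Chek2: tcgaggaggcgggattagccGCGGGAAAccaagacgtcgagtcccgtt
Fancg: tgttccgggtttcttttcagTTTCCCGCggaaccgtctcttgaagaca
Msh6: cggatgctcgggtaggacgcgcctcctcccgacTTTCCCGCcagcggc
The windows lie at chr11:87404932-87404979 (minus strand, Rad51c), chr5:150522433-150522480 (plus, Brca2), chr1:71103154-71103201 (minus, Bard1), chr5:110839811-110839858 (plus, Chek2), chr4:43010326-43010373 (minus, Fancg) and chr17:87975032-87975079 (plus, Msh6). The match begins 5 bases before the start in Rad51c, at 1 of its starts in the table, and 209 bases before it in Bard1.

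Of the 9 genes that rose between the combination and anti-CD27, 7 had a promoter entry and 1 of the 7, Rad51c, held the E2F letters, while 5 of the 20 genes not called did. The letters CCAAT, searched on both strands, occurred in 17 of the 27 genes (63%) against 41.6% of tested genes with a promoter, in 4 of the 7 that rose and in 13 of the 20 not called. Brip1 held CCAAT 3 times and Xrcc3, which was not called, 6 times. The Brip1 window at chr11:86201164-86201313 (minus strand) shows its matches in capitals as ATTGG, the reverse complement.
Brip1: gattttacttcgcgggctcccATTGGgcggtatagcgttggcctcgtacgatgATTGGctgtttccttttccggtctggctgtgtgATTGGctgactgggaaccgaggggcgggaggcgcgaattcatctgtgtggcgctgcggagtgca
A match is a description of letters and not a measured binding site.

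Other lists of repair and cell cycle genes were read in the same comparison of the combination with anti-CD27. Of 62 other genes of the pathway 6 rose and none fell, with a median difference of 0.13. Tipin, which encodes a fork protection protein, rose by 1.14 ± 0.16 (adjusted p = 0.0107). Fignl1, which encodes an ATPase of recombination, rose by 0.88 ± 0.10 (adjusted p = 0.00534), Rpa2, a subunit of the single-strand binding complex, by 0.52 ± 0.06 (adjusted p = 0.00701) and Rif1, which limits resection, by 0.51 ± 0.08 (adjusted p = 0.0172).

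Genes of DNA replication rose in 22 of 33 cases, with a median of 0.82. Among them Rrm2, a subunit of ribonucleotide reductase, rose by 1.52 ± 0.19 (adjusted p = 0.00732) and the helicase subunit Mcm3 by 1.30 ± 0.09 (adjusted p = 0.000691). Mitotic genes had a median of 0.82 as well, but 1 of 25 was called, Ccnb2, the cyclin B2 gene, at 1.49 ± 0.23 (adjusted p = 0.0176). Lig1, the ligase that joins replicated strands, was the 1 called gene of 23 in base and nucleotide excision repair, at 0.95 ± 0.14 (adjusted p = 0.0133). None of 8 genes of end joining, 4 of mismatch repair and 21 targets of p53 was called. The largest differences of these lists were 0.32 for the end binding gene Xrcc5 (adjusted p = 0.197), -0.19 for the mismatch repair gene Mlh3 (adjusted p = 0.523) and -0.32 for the stress-response gene Sesn1 (adjusted p = 0.243). Marker lists of other cell types held 1 call, Itgam of the 8 myeloid markers, which was higher in the combination by 0.61 (adjusted p = 0.00103). Cd68 of that list was higher by 0.36 without overlap (adjusted p = 0.302), while 5 of the 8 differences were below 0. The summed linear level of the myeloid list was 118 to 127 in the combination, 104 to 105 in anti-CD27 and 102 to 115 in anti-PD-1/L1. The part of these markers in the result was not tested.

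**Figure D5:**
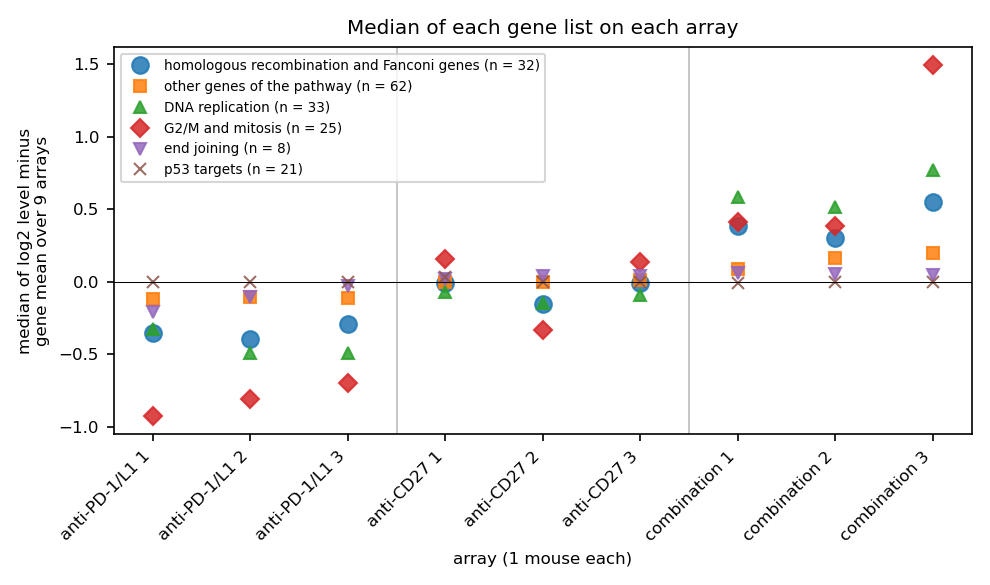
Median over each gene list of the log2 level minus the gene's mean over the 9 arrays (vertical axis) on each array (horizontal axis). The recombination and Fanconi genes (circles) lie at 0.30 to 0.55 on the combination arrays and at -0.40 to -0.29 on the anti-PD-1/L1 arrays. The median of the p53 targets stays close to 0 throughout, although single targets differed in both directions. Against anti-PD-1/L1, 8 of the 21 were called higher and 7 lower in the combination, and 8 higher and 8 lower in anti-CD27.

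The comparison of the combination with anti-PD-1/L1 asks what CD27 agonism added to the blockade, and it shares the combination arrays with the comparison above. Of the 32 genes 24 rose and 1 fell, where 19.0% of all genes rose and 53.3% fell. The median difference was 0.89, against -0.26 over all genes. In 24 of the 32 genes every combination array lay above every anti-PD-1/L1 array, against 18.9% of all genes. Where the anti-PD-1/L1 mean was at or below the background controls, the difference from the background control mean of 4.06 is given as a lower limit. This applied to 16 of the 24 genes, and for 3 of these (Rad51ap1, Fancb and Chek2) the limit was not above 0. The adjusted p beside a limit is that of limma's fitted difference, and the limits themselves were not tested.

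The genes with the largest differences from anti-PD-1/L1 included the break sensors Rad50 and Atm. Rad50 was at 3.64, 3.70 and 3.66 on the anti-PD-1/L1 arrays, below background, and the combination was higher by at least 2.35 (fitted difference 2.75 ± 0.05, adjusted p = 1.63e-08). Atm was at 3.83, 3.77 and 3.98 there and 6.51, 6.47 and 6.26 in the combination, also higher by at least 2.35 (fitted difference 2.55 ± 0.08, adjusted p = 7.67e-08). Topbp1, whose mean was above the background control mean in both groups, rose by 2.11 ± 0.10 (4.31-fold, adjusted p = 4.44e-07). Its anti-PD-1/L1 mean of 4.84 was below the 95th percentile of the background controls there, which lay at 8.27. For each of these genes the groups were separated by many times the spread within them. That spread does not measure an offset shared by all arrays of a group, and the anti-PD-1/L1 arrays stood apart in their controls. Treatment and array quality cannot be told apart in this comparison.

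Msh6 rose by 2.10 ± 0.13 (adjusted p = 2.53e-06), Brip1 by 1.57 ± 0.14 (adjusted p = 2.36e-05), Nbn by 1.48 ± 0.06 (adjusted p = 2.9e-07), Clspn by 1.30 ± 0.15 (adjusted p = 8.06e-05) and Mre11a by 1.30 ± 0.07 (adjusted p = 1.94e-06). With anti-PD-1/L1 at background, Blm was higher by at least 1.60, Exo1 by at least 0.91, Fancd2 by at least 0.87, Atr by at least 0.77 and Rad54l by at least 0.67. Lower limits for Brca1, Fanci, Fancm, Chek1, Brca2 and Rad51c ran from 0.60 down to 0.15. Fancl rose by 0.26 ± 0.08 (adjusted p = 0.0218) and Xrcc3 by 0.29 ± 0.10 (adjusted p = 0.0281). The call of Fancl was lost without replicate 2 or 3 of the combination, and that of Xrcc3 without replicate 1 or 3 of the combination or replicate 3 of anti-PD-1/L1.

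Rad52 was the 1 gene that fell. It was at 5.13, 4.90 and 5.21 in anti-PD-1/L1 and 4.90, 4.83 and 4.61 in the combination, a difference of -0.30 ± 0.10 (adjusted p = 0.0213) with groups that touch at 4.90. The call was lost in 8 of 18 alternative analyses, among them the removal of replicate 3 of the combination and of anti-PD-1/L1 replicate 1 or 3. Bard1, Palb2, Rad54b, Fanca, Fancc, Fancg and Atrip were not called, with differences between -0.06 for Fancg and 0.20 for Bard1.

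Between anti-CD27 and anti-PD-1/L1, the agonist and the blockade given singly, 12 of the 32 genes were higher in anti-CD27 and 1 was lower, where 17.1% of all genes were higher and 53.6% lower. The median difference was 0.12, against -0.26 over all genes, and 14 genes were higher without overlap of the groups (17.4% of all genes). This comparison shares its arrays with the other two. Atm was higher in anti-CD27 by at least 2.20 (fitted difference 2.41, adjusted p = 1.09e-07), with 6.33, 6.21 and 6.26 on the anti-CD27 arrays. Rad50 was higher by at least 1.90 (fitted difference 2.30 ± 0.05, adjusted p = 3.4e-08). Msh6 was higher by 1.58 ± 0.13 (adjusted p = 1.45e-05), Topbp1 by 1.46 ± 0.10 (adjusted p = 4.62e-06) and Nbn 2.6-fold (adjusted p = 4.79e-07).

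Mre11a was higher in anti-CD27 by 1.00 ± 0.07 (adjusted p = 9.95e-06), Atr by at least 0.75, Blm by at least 0.70, Fancm by at least 0.20, Brip1 by 0.61 ± 0.14 (adjusted p = 0.00457) and Clspn by 0.40 ± 0.15 (adjusted p = 0.0382). Clspn was no longer called after removal of replicate 1 or 2 of anti-PD-1/L1, or of replicate 1 or 3 of anti-CD27. Brca1 was called with a fitted difference of 0.43, and its anti-CD27 mean of 4.05 was level with the background of the anti-PD-1/L1 arrays. Rad51c was the 1 gene called lower in anti-CD27, with a fitted difference of -0.17 ± 0.05 (adjusted p = 0.0126). Its anti-PD-1/L1 level of 3.88 lay below that group's background controls, so no direction is read from it. The difference was 0.11 after quantile normalization and 0.09 with arrays scaled to 1 SD. Its call was also lost without replicate 1 of anti-CD27.

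Side by side, the genes showed different orders over the 3 groups. Nbn, Atm and Atr had group means in anti-CD27 and the combination within 0.15 of each other, both well above anti-PD-1/L1. Chek1 had means of 3.41 ± 0.15 with anti-PD-1/L1, 3.43 ± 0.26 with anti-CD27 and 4.53 ± 0.02 with the combination, and Exo1 of 3.96 ± 0.08, 4.09 ± 0.07 and 4.98 ± 0.23. For Chek1 and Exo1 the difference between the single treatments was 0.02 (95% interval -0.26 to 0.31) and 0.13 (-0.12 to 0.37), with anti-PD-1/L1 below background. Blm, Brip1, Topbp1 and Clspn were called in all 3 comparisons and stepped up from anti-PD-1/L1 to anti-CD27 to the combination. Rad50 did so too, with its larger step between anti-PD-1/L1 and anti-CD27. Brca1 was also called in all 3, with no step between the single treatments once the background is taken as the limit.

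The comparisons with anti-PD-1/L1 moved with the processing. With arrays quantile normalized 29 of the 32 genes rose in the combination and with arrays scaled to 1 SD 31 did, while 7161 genes of all rose and 9144 fell under the first and 11379 rose and 7479 fell under the second, against 5837 and 16381 as deposited. With the positive control mean of each array as a covariate, 6 of the 32 rose (Rad50, Mre11a, Nbn, Fancm, Atm and Topbp1). These same 6 were higher in anti-CD27 with that covariate, where all genes split into 1089 higher and 1336 lower, against 5263 and 16486 without it. For the combination, all genes split into 899 higher and 1025 lower with the covariate. The median difference of the 32 genes was 1.12 with it and 0.89 without it for the combination. For anti-CD27 the median was 0.47 with it and 0.12 without it. The lower positive controls and higher background controls of the anti-PD-1/L1 arrays move with these comparisons. So do their marker sums: 105 to 124 for B cells against 85.9 to 88.7 in anti-CD27 and 77.3 to 81.3 in the combination, 65.3 to 79.8 for granulocytes against 49.8 to 53.1 and 48.5 to 54.6, and 50.9 to 54.5 for erythroid cells against 40.3 to 42.7 and 38.1 to 41.7. The part of these markers in the result was not tested, and treatment and array quality cannot be told apart there.

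Other repair lists were higher in the combination than in anti-PD-1/L1 in 35 of 62 genes of the same pathway (8 lower), 3 of 8 of end joining and 3 of 4 of mismatch repair (none lower in either), and 10 of 23 of excision repair (4 lower). Rif1 was higher by at least 2.49, Wrn, which encodes a helicase of the same family as Blm, by 1.95 ± 0.05 (adjusted p = 4.07e-08) and Usp1, the enzyme that removes ubiquitin from FANCD2, by 1.85 ± 0.14 (adjusted p = 9.95e-06). Genes of DNA replication rose in 27 of 33 cases and mitotic genes in 22 of 25, and p53 targets were split into 8 higher and 7 lower. In anti-CD27 against anti-PD-1/L1 the other genes of the pathway had 28 higher and 11 lower, replication genes 16 and 3, and mitotic genes 14 and none.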

How the data were processed

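Per the submitters' processing notes, the authors made the deposited log2 values with RMA in oligo 1.38.0; the genome build of the array is not given in the sources used here. Of 72688 probe sets, 6732 were controls. Symbols came from the platform annotation, with 1439 updated through a RefSeq gene table. Probe sets naming 1 gene were kept, with the highest mean where a gene had several, which left 30745 genes with no filter on low values. Each array is 1 mouse. The probe sets of Rad54b and Atrip were added although they name 2 genes each.

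limma 3.58.1 in R 4.3.3 was fitted to all 9 arrays with 1 mean per group (6 residual degrees of freedom), two-sided, with Benjamini-Hochberg adjustment over 30745 genes; calls are at an adjusted p under 0.05. The test was checked on simulated data. Differences are log2 values with limma's SE, and levels with the SD over 3 mice, whose number limits the precision. Every gene of the list is named; of other lists, up to 4 called genes with the largest difference, or the 1 largest where none was called. The genes and lists were chosen with earlier results of these data known. Replicate numbers did not pair the samples. The use of the background control mean for lower limits, in place of the 95th percentile, was chosen after seeing the data. Alternatives varied the arrays, normalization, scaling, filter, rows, spread, weights and replicates.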

Additional observations from a re-analysis of the deposited data

How the results depend on the processing

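Between the combination and anti-CD27, the count of 9 higher genes became 16 with array weights and lay between 5 and 11 when 1 array was left out. Over all genes, 387 higher became 1815 with array weights and lay between 136 and 939 when 1 array was left out. The count of repair genes was 8 to 12 under the other alternatives, and no gene of the list was called lower in any alternative. Against anti-PD-1/L1, the combination's 24 higher genes became 6 with the positive control covariate and lay between 22 and 24 with 1 array left out. With that covariate 899 of all genes rose, against 5837 without it. The median difference of the repair genes was 1.12 with it and 0.89 without it. The 1 lower gene became 0 with the 6 compared arrays alone, quantile normalization, scaling, the covariate and array weights, and was 0 to 1 with 1 array left out. In anti-CD27 against anti-PD-1/L1, 12 higher genes became 21 with quantile normalization, 22 with scaling and 6 with the covariate, and lay between 11 and 13 with 1 array left out. Its 1 lower gene became 2 with the replicate block, 0 with quantile normalization, scaling, the covariate and array weights, and was 0 to 2 with 1 array left out. Over all genes in that comparison, 5263 higher became 6523 with quantile normalization, 10087 with scaling and 1089 with the covariate. The 16486 lower became 9409, 7638 and 1336. The cause of these changes was not tested.

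Among differences called in the setting or as reported, those that turned direction all had anti-PD-1/L1 on one side; uncalled differences close to 0, such as that of Atr between the combination and anti-CD27, changed sign as well. For the combination, Fancc became 0.31 with quantile normalization and 0.28 with scaling, Fancg 0.14 and 0.15, and Xrcc3 -0.33 with the covariate. For anti-CD27, the values with quantile normalization and scaling were 0.29 and 0.31 for Rad51ap1, 0.11 and 0.087 for Rad51c, 0.27 and 0.30 for Fancb, and 0.27 and 0.26 for Fancc, and Fanca became 0.23 with quantile normalization. The median of all genes moved from -0.26 to -0.05 and 0.09 for the combination.

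The replicate number was tried as a block. Of 9 pairs of arrays with the same number 1 correlated above 0.1, so the numbers were not taken as pairs, and the block gave 11 higher genes for the combination against anti-CD27, 23 higher and 1 lower against anti-PD-1/L1, and 14 higher and 2 lower between the single treatments. Of all genes, the block gave 267, 5727 and 5140 higher in these comparisons, against 387, 5837 and 5263 without it. No gene of the list had a second probe set, so that alternative was not run. Over all genes, the 387 higher and 160 lower of the first comparison became 1224 and 428 with its 6 arrays alone and 1815 and 698 with array weights. Low signal limits the values as well: a gene near the background controls can show a smaller difference than its transcript had.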
